A study of Mus musculus with 24 samples.

Results

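The semaphorins, plexins and neuropilins are 31 genes of axon guidance signalling: 20 semaphorins, the neuropilins Nrp1 and Nrp2, and 9 plexins. They were found by gene symbol in the platform annotation of the array, where 78 of 45037 tested probe sets matched 1 of the 31 symbols and no other gene, among 18193 genes with such probe sets. Each gene was measured by 1 to 6 probe sets, and its value is their mean. No value from the arrays entered this match by symbol, but the genes were chosen with earlier results of these data known.

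Semaphorins are guidance proteins that are secreted or held in the membrane and that attract or repel growing axons, while plexins are the transmembrane receptors that pass the signal to small GTPases and the cytoskeleton. The secreted class 3 semaphorins mostly need a neuropilin as the binding partner beside a plexin of the A family, whereas most membrane-bound semaphorins bind plexins directly. In the adult brain the family is known for its part in pruning axons, in the density of dendritic spines and in synaptic plasticity, and in blood vessels several members guide endothelial cells.

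The RNA came from wild-type male C57BL/6 mice labelled as 6 to 8 weeks old, which the methods give as the age at purchase, before a rest and the weeks of stress, so the mice were older when tissue was taken. The 4 pieces of brain studied were the prefrontal cortex, cerebral cortex, hippocampus and amygdala. Mice in the chronic mild stress (CMS) group received unpredictable mild stressors on 6 days per week for 4 weeks, and control mice received none. Each of the 8 combinations of treatment and brain area was hybridised to 3 Affymetrix mouse genome arrays, 24 in total. The methods name pooled RNA, whereas the sample labels name biological replicates and the design names independent mice, so the spread between arrays may be technical, and the p-values then describe only that spread.

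The values are on a log2 scale and were centred by probe set, with 0 as the middle of its 24 arrays. A value therefore gives the distance of an array from that middle and not an absolute level, and the genes cannot be ranked against each other. The stress contrast was fitted by limma in 1 area at a time, two-sided, with Benjamini-Hochberg adjustment over all 18193 genes. A gene is said to have risen, fallen or changed at an adjusted p under 0.05, and to be called when the difference also passed 2-fold. An exact permutation test of 3 against 3 arrays cannot go below a p of 0.1 and was not used.

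The labels of the hippocampus, cerebral cortex and amygdala were checked against marker genes of each tissue. The list mean of 17 hippocampal neuron genes was 2.55 to 2.75 in the 6 hippocampal arrays and at most 0.138 elsewhere. That of 15 cortical layer genes was highest in the cerebral cortex (0.28 to 0.401), and that of 13 amygdala neuron genes was highest in the amygdala (0.386 to 0.523). No list was particular to the prefrontal cortex, so its label was not checked in this way. The cortical layer list lay at 0.103 to 0.193 in the prefrontal arrays. The bacterial RNAs added as hybridisation controls (18 probe sets) differed between treatments without overlap in the amygdala (0.746 to 0.895 with CMS and 0.0111 to 0.0199 in controls), the hippocampus (-1.5 to -1.46 and -1.14 to -1.06) and the prefrontal cortex (0.115 to 0.165 and -0.212 to -0.111). In the cerebral cortex the treatments did not overlap either, by a narrow margin (-0.0384 to 0.0336 with CMS and 0.0384 to 0.237 in controls). The difference between the 3′ and 5′ control probe sets of Gapdh and beta-actin, a measure of RNA quality, also separated CMS from control without overlap in every area: 0.0811 to 0.132 against -0.0326 to 0.0155 (amygdala), -0.331 to -0.29 against -0.273 to -0.233 (hippocampus), -0.247 to -0.199 against 0.106 to 0.228 (cerebral cortex) and -0.0792 to 0.00322 against 0.0415 to 0.108 (prefrontal cortex). The part of both measures in the results below was not tested.

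The control pieces also differed in genes of neighbouring regions. Hypothalamic and striatal lists had means of 1.47 and 1.25 in the amygdala, above its own list (0.506), the striatal list lay at 0.961 in the prefrontal and at -2.27 in the cerebral cortex, and the choroid plexus list had means of 2.4 (hippocampus), 1.63 (cerebral cortex), 0.16 (prefrontal cortex) and -0.439 (amygdala). Their part in the differences between control areas was not tested.

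**Figure D1:**
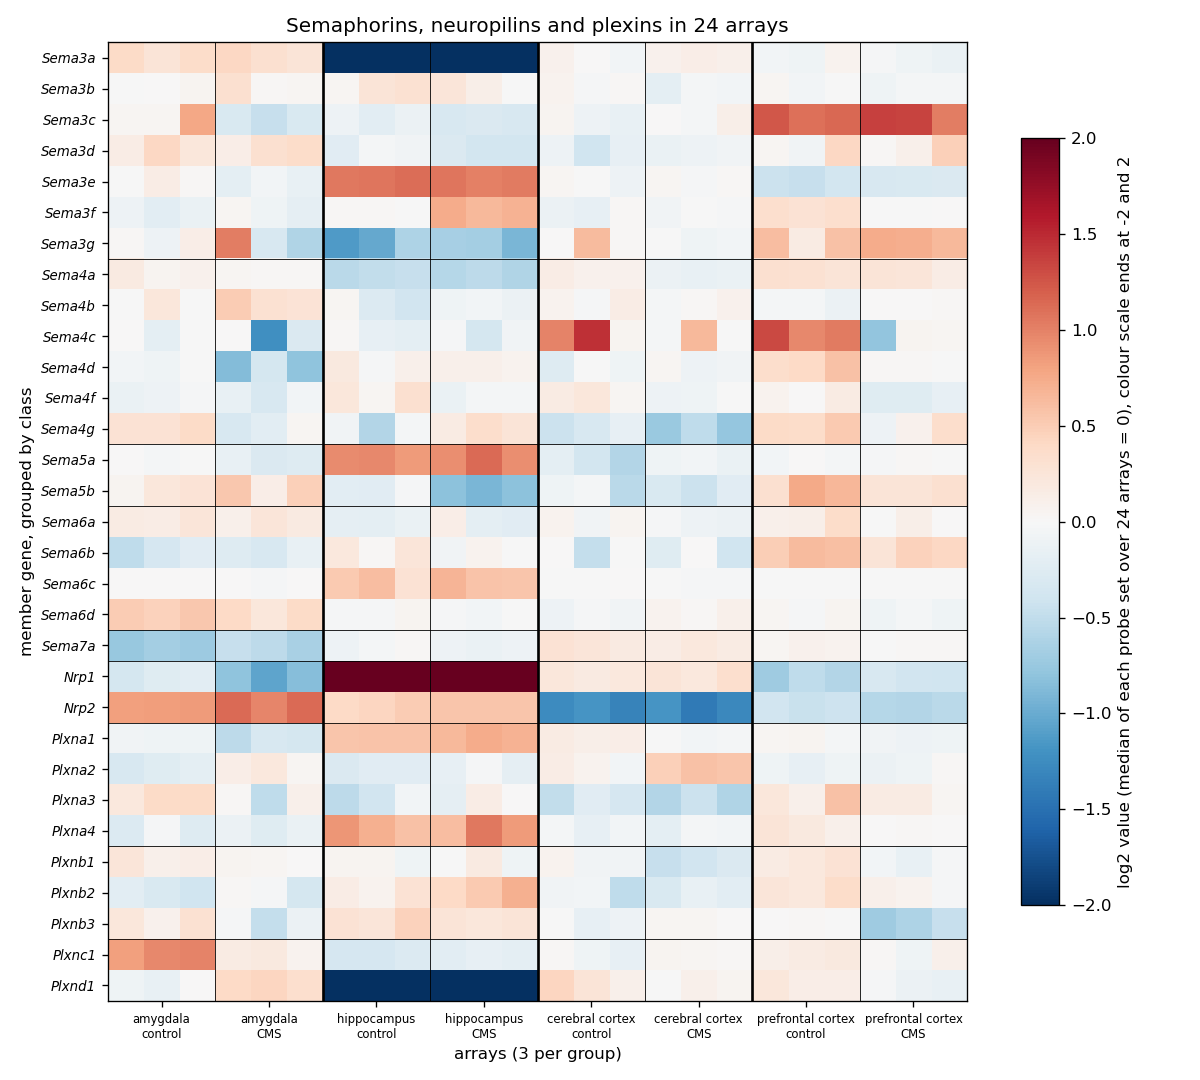
Centred log2 value of each of the 31 genes (rows, grouped by class) in each of the 24 arrays (columns, 3 per area and treatment); red is above and blue below the median of the arrays, and the colours end at -2 and 2. The vertical blocks of strong colour are the hippocampal arrays of Sema3a, Plxnd1 and Nrp1, in both treatments.

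The first question was how the family is laid out over the areas of the control mice. An F test over the 4 control areas gave an adjusted p under 0.05 for 30 of the 31 genes, and for 58.1% of all genes. The exception was Sema4b, a transmembrane semaphorin of class 4 (highest minus lowest area 0.278, adjusted p = 0.0951). For 10 genes the highest and the lowest area also differed by more than 1 on the log2 scale, which held for 10.4% of all genes, and these were Sema3a, Sema3c, Sema3e, Sema3g, Sema4c, Sema5a, Nrp1, Nrp2, Plxnc1 and Plxnd1. The hippocampus held an extreme for 9 of the 10, as the highest area of 3 (2.26% of all genes were called with their highest value there) and the lowest of 6 (4.3% of all genes). The median of the difference between the highest and the lowest area was 0.73 over the 31 genes and 0.3 over all genes. In bulk tissue, fewer cells of a type and less RNA per cell cannot be told apart, and this holds for every difference between areas or treatments given here.

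Among the secreted class 3 ligands, Sema3a, the prototype repellent of axons that carry Nrp1, had its lowest values in the hippocampus. The control arrays read -2.29, -2.41 and -2.46 there, while amygdala arrays read 0.39, 0.26 and 0.37, cerebral cortex arrays 0.09, 0.01 and -0.06, and prefrontal cortex arrays -0.06, -0.08 and 0.07. The amygdala stood above the cerebral cortex (adjusted p = 0.00206), the cerebral and the prefrontal cortex did not differ beyond their spread (0.651), and the hippocampus stood 6.62-fold below the amygdala. The probe sets disagreed in size: 2 of the 3 lay at -3.83 and -3.38 in the control hippocampus, and the other lay at 0.052 there with a difference of at most 0.194 between areas.

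Sema3e, which binds Plxnd1 without a neuropilin, had the opposite layout. Its control arrays read 1.06, 1.06 and 1.11 in the hippocampus, and means in the other areas were 0.06 ± 0.08 (amygdala), -0.02 ± 0.07 (cerebral cortex) and -0.42 ± 0.04 (prefrontal cortex; SD, n = 3). The hippocampus differed from the amygdala (adjusted p = 1.13e-07), the amygdala and the cerebral cortex did not differ beyond their spread (0.261), and the prefrontal cortex stood below both. All 4 probe sets had their highest value in the hippocampus. Its receptor Plxnd1, also known for guiding blood vessels, was measured by 1 probe set and was lowest in the hippocampus, at -2.23, -2.25 and -2.59 in control arrays, against 0.26 ± 0.16 (cerebral cortex), 0.16 ± 0.06 (prefrontal cortex) and -0.07 ± 0.08 (amygdala; SD, n = 3). The other areas of Plxnd1 did not differ from their neighbours in this order (adjusted p = 0.48 and 0.114). The hippocampus was thus the highest area of the ligand and the lowest of its receptor, and the difference between the areas was 2.83-fold for Sema3e and 6.14-fold for Plxnd1.

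Sema3c was highest in the prefrontal cortex (1.17 ± 0.07, SD, n = 3), where it stood above the amygdala (adjusted p = 0.00198). The 3 control arrays of the amygdala read 0.04, 0.03 and 0.77, so that 1 array, replicate 3, lay apart, and the amygdala, cerebral cortex and hippocampus did not differ beyond their spread. Sema3g was lowest in the hippocampus (-0.93 ± 0.27) and did not differ between the other areas in order (0.368 and 0.599). Of the other class 3 ligands, Sema3b, Sema3d and Sema3f differed between the highest and the lowest control area by 0.215, 0.494 and 0.469.

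Among the membrane-bound ligands, Sema4c, a ligand of the plexin B receptors, was highest in both cortical areas. Its control arrays read 1.32, 0.96 and 1.04 in the prefrontal cortex and 0.98, 1.45 and 0.06 in the cerebral cortex, and their means did not differ beyond the spread (adjusted p = 0.45), while the amygdala and the hippocampus lay at -0.06 ± 0.12 and -0.11 ± 0.12 (SD, n = 3). Sema5a, a transmembrane ligand with thrombospondin repeats, was highest in the hippocampus (0.92 ± 0.06) and lowest in the cerebral cortex (-0.38 ± 0.20). Its probe sets differed: 2 of 4 carried the pattern, at 1.6 and 1.92 in the hippocampus, and the other 2 spanned at most 0.151 over the areas. Sema7a, which is tied to the membrane by a lipid anchor and binds Plxnc1, was lowest in the amygdala (-0.72) and highest in the cerebral cortex (0.24), a difference of 0.959 that stayed just below 2-fold. Of its 2 probe sets 1422040_at was flat, with a span of 0.0738, and 1459903_at spanned 1.89, from -1.45 to 0.44 in the same areas.

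**Figure D2:**
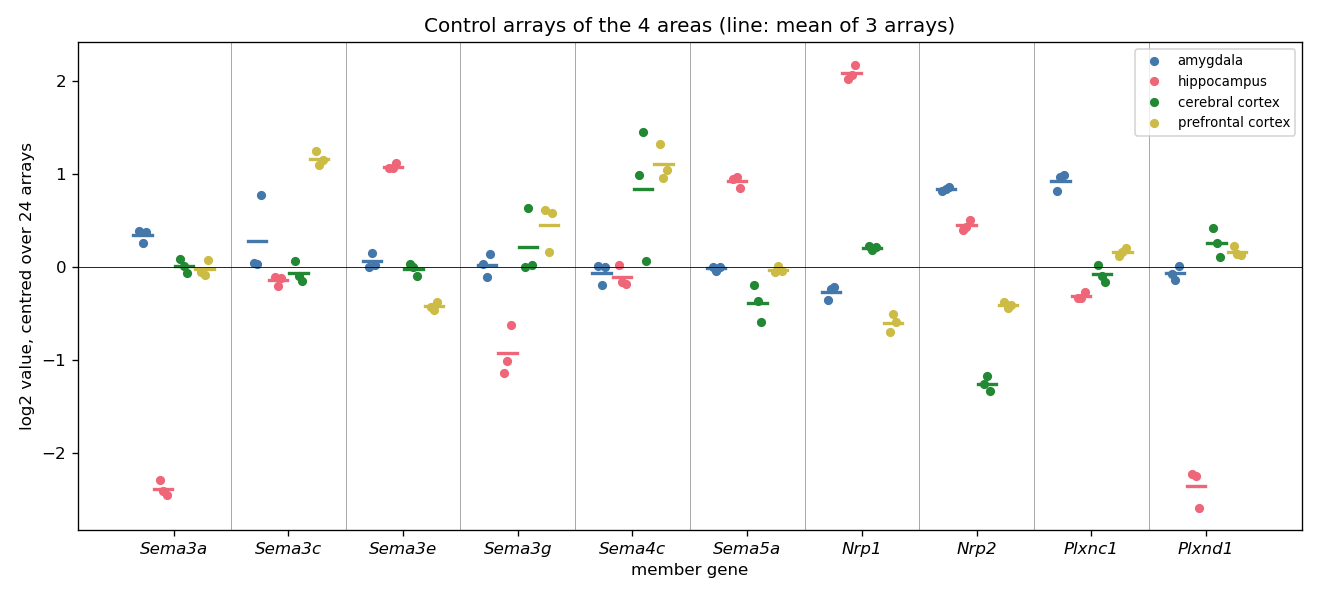
Centred log2 values (vertical axis) of the 10 genes that differed by more than 2-fold between control areas (horizontal axis); each point is 1 control array, each line the mean of 3, and the colour gives the area. Nrp1, Sema3e and Sema5a are highest and Sema3a, Sema3g and Plxnd1 are lowest in the hippocampus, with no overlap with the other areas.

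The neuropilins, which hold the secreted ligands for the plexins, were laid out differently from each other. Nrp1 read 2.03, 2.07 and 2.18 in the control arrays of the hippocampus, then 0.22, 0.18 and 0.22 for the cerebral cortex, -0.36, -0.24 and -0.22 for the amygdala, and -0.71, -0.51 and -0.59 for the prefrontal cortex. The 4 areas did not overlap and each differed from the next (adjusted p = 7.5e-09, 0.000115 and 0.00112), with 6.46-fold between the hippocampus and the prefrontal cortex. Nrp2, the partner of Sema3f, was highest in the amygdala (0.84 ± 0.02), then the hippocampus (0.45 ± 0.06), the prefrontal cortex (-0.41 ± 0.03) and the cerebral cortex (-1.26 ± 0.08, SD, n = 3), and each differed from the next as well. The hippocampus was the highest area of all 4 Nrp1 probe sets, and 3 of the 4 Nrp2 probe sets had the order of the gene value, while the fourth spanned 0.119.

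Of the plexins, Plxnd1 and Plxnc1, the receptor of Sema7a, differed by more than 2-fold between control areas by gene value. It was highest in the amygdala, where the control arrays read 0.82, 0.96 and 0.99, and each area differed from the next (adjusted p = 3.38e-06, 0.00873 and 0.00767). Plxna4 and Plxna1, which serve the neuropilins as signalling partners, were highest in the hippocampus with Nrp1, at 0.72 and 0.57, and spanned 0.906 and 0.649. Both passed 2-fold by 1 of their 2 probe sets, 1441371_at of Plxna4 (1.11 in the hippocampus, span 1.5) and 1428623_at of Plxna1 (1.08, span 1.25), while the other probe set of each did not. The plexin B receptors, Plxnb1, Plxnb2 and Plxnb3, spanned 0.238, 0.577 and 0.426.

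The order of the areas was also read in the CMS arrays, which the control comparison did not use. Of the 10 genes, 8 had the same highest area there and 6 the same lowest area, and of all 31 genes 20 and 17 did. Sema4c lost both, and in the CMS arrays its highest area was the cerebral cortex (0.20) and its lowest the amygdala (-0.50). Sema3a, Sema3e, Sema3g, Nrp2 and Plxnc1 kept both.

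The promoters of genes with the clearest differences are shown as the DNA on which regulation acts. Of the 31 genes, 26 had a promoter in the RefSeq table of build GRCm38.p6 (37 promoters in all), and Sema3b, Sema3f, Sema6a, Plxna1 and Plxna4 had none. Each sequence runs 5′ to 3′ in the direction of the gene, from 250 bases before the start to 50 bases after it. Capitals mark exact matches, on either strand, to 11 motifs: GGGCGG (the GC box of the Sp1 family), CCAAT (the box bound by NF-Y), TATAAA (the TATA box), CAGCTG (an E-box), TGACGTCA (the CREB site), TGTTCT (a core of the glucocorticoid receptor site), TCAGCAC (a first piece of the NRSF site), GGACAGC (the other piece), TTTCGCG (an E2F site), TTTGGCG (a variant of it) and TTTCCCG (a further variant).

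Shown first are the genes with a probe set past 2-fold after CMS in the amygdala: Nrp1 (chr8:128358823-128359122, plus strand), Plxnc1 (chr10:94944796-94945095, minus strand) and Plxna2 (chr1:194619579-194619878, plus strand).
Nrp1: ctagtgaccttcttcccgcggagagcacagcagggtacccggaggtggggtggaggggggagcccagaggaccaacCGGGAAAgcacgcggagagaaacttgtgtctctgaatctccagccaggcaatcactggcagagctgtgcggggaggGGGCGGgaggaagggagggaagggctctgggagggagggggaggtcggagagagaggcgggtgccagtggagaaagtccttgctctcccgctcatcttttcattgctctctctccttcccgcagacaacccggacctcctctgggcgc
Plxnc1: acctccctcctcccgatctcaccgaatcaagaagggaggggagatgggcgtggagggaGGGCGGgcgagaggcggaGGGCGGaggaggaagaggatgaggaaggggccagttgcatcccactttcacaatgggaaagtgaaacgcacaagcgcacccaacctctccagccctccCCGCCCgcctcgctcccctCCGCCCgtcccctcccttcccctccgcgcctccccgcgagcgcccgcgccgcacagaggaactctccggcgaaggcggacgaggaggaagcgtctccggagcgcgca
Plxna2: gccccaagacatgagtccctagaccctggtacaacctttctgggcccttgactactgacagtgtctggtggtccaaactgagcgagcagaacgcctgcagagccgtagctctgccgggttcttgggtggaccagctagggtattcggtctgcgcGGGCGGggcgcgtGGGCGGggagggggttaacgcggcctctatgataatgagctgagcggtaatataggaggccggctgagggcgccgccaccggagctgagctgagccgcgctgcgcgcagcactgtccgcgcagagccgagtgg
These promoters are rich in G and C, at 64, 69 and 64.7%. The GC box stands 4 times in Plxnc1, 2 times in Plxna2 and 1 time in Nrp1, and the other match, in Nrp1, is to TTTCCCG on the minus strand. None of the 3 holds the glucocorticoid receptor core, which says only that these letters are not in these windows.

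The genes of the hippocampal contrast are Sema3a (chr5:13396534-13396833, plus strand), Sema3e (chr5:14025026-14025325, plus strand) and the receptor Plxnd1 (chr6:115994956-115995255, minus strand).
Sema3a: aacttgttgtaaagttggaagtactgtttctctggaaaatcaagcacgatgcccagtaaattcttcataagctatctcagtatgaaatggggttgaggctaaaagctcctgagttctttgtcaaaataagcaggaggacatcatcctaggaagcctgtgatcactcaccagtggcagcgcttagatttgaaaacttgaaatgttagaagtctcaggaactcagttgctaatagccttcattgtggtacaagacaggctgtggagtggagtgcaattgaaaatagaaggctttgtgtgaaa
Sema3e: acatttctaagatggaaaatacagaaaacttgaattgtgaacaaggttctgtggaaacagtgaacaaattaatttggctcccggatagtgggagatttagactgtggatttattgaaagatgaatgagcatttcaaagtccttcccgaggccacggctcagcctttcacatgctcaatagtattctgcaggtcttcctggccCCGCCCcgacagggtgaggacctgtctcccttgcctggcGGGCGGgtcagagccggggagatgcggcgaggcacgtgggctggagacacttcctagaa
Plxnd1: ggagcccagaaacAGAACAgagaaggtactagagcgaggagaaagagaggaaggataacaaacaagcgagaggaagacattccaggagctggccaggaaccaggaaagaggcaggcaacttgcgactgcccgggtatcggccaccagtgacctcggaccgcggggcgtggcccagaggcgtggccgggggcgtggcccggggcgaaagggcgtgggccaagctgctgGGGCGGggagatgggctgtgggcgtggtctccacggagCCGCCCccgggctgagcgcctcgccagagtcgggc
The promoter of Sema3a had the lowest G and C content of the family, 41.3%, with 2 CpG pairs, and like that of Sema5b it had no match to any of the motifs. Sema3e held 2 GC boxes, and Plxnd1 held 2 GC boxes and 1 glucocorticoid receptor core, at position -237 from the start. Over the family the GC box was found in 27 of 37 promoters (73%), and in 35.7% of all 32851 promoters in the table, beside a median G and C content of 63.7% in the family and 52.7% in all. The glucocorticoid receptor core stood in 8 of 37 (21.6%, against 19% of all), in the promoters of Plxna3, Plxnd1, Sema4d, Sema6b and Sema6d, and TATAAA in none (13.6% of all).

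The effect of stress was read area by area. Of the 31 genes, 12 changed in no area, 10 in 1 area, 8 in 2 areas and 1, Plxna1, in 3 areas. Most of these changes were under 2-fold, and Sema4c in the prefrontal cortex was the only call by gene value. Sema3f, Nrp1, Nrp2, Plxna1, Plxnc1 and Plxnd1 rose in some areas and fell in others. The changes of Plxna1 rest on 1428623_at, because its other probe set, 1421232_at, lay within 0.05 of 0 in 21 of the 24 arrays. With quantile normalization the Plxna1 changes in the amygdala and hippocampus missed the threshold.

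The 12 genes that changed in no area were the secreted ligands Sema3a, Sema3b, Sema3e and Sema3g, the transmembrane ligand Sema4b, all 4 class 6 ligands (Sema6a, Sema6b, Sema6c and Sema6d), which signal to plexin A receptors, the anchored ligand Sema7a, and the receptors Plxna3 and Plxna4. Their differences lay between -0.45 and 0.32, and both ends belonged to Plxna3, in the amygdala and the hippocampus. Sema3a, Sema3e and Plxna4 thus differed between control areas without passing the test for stress in any of them.

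**Figure D3:**
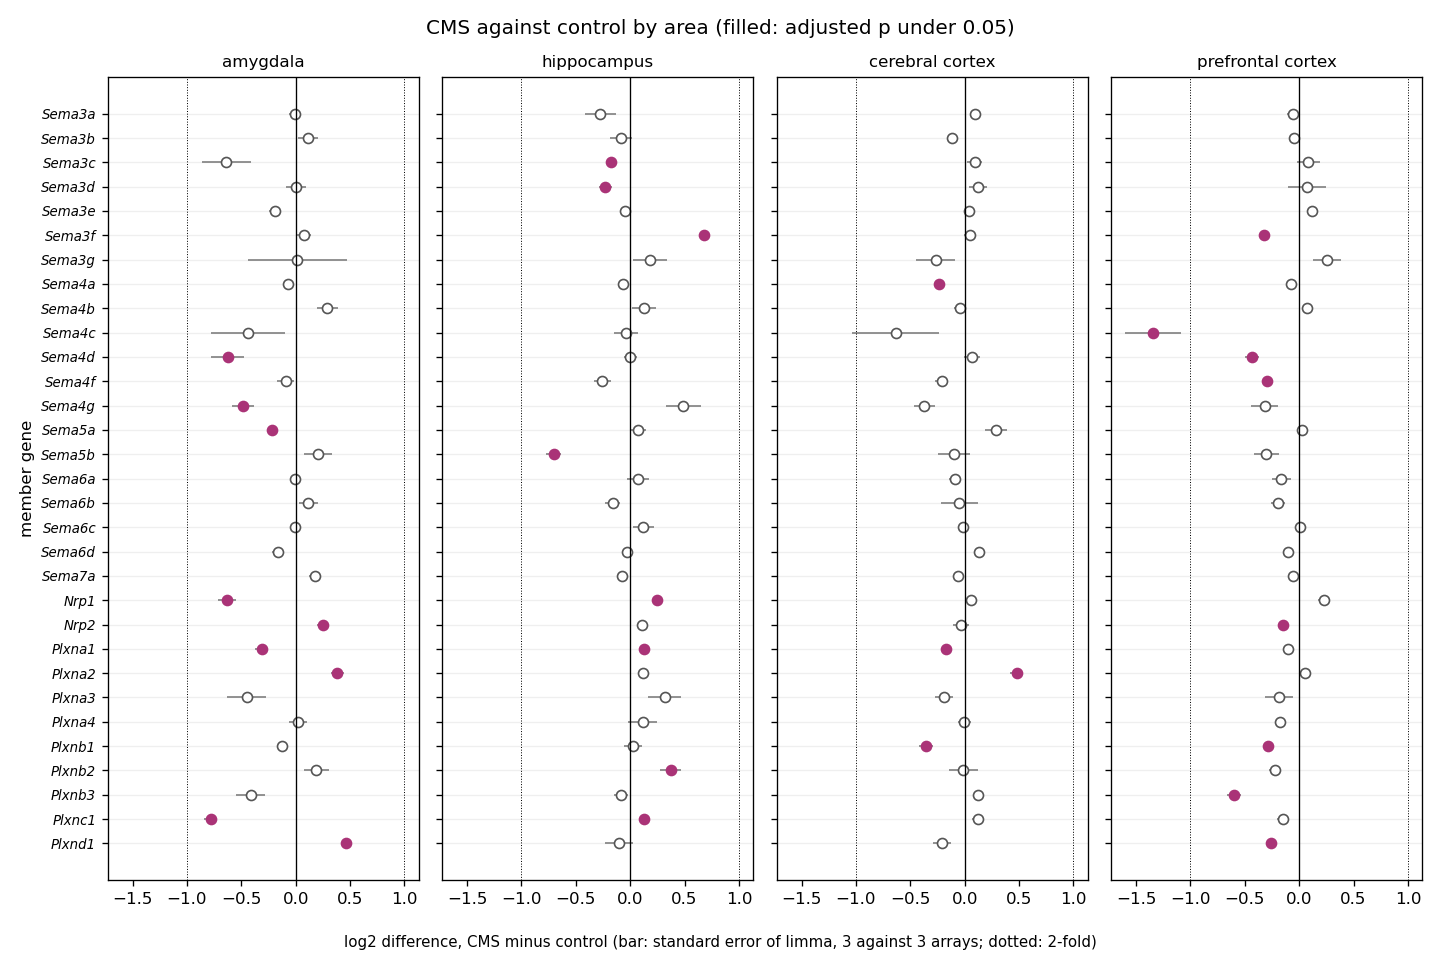
Log2 difference between CMS and control (horizontal axis) for the 31 genes (vertical axis) in the 4 areas; bars are the standard error of limma with 3 against 3 arrays, filled points have an adjusted p under 0.05 and dotted lines mark 2-fold. Changes run both ways in the amygdala, hippocampus and cerebral cortex, whereas all 8 that passed in the prefrontal cortex are below 0, with Sema4c beyond the dotted line.

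In the amygdala, the receptors Plxnc1 and Nrp1 fell, while Plxnd1, Plxna2 and Nrp2 rose. In all, 3 genes rose, against 10.5% of all genes, and 6 fell, against 8.84% of all genes. None passed 2-fold by gene value in limma (0.583% of all genes did), and the methods' t-test also called 0. For 3 genes a single probe set or more passed it (Nrp1, Plxna2 and Plxnc1, against 2% of all genes). An unadjusted p under 0.05 was reached by 16 genes, but the share over all genes was not counted, so this number has no background. The CMS and control arrays did not overlap for 18 of the 31 genes and for 55.2% of all genes. The median difference was -0.0077 over the 31 genes and 0.022 over all genes. With quantile normalization 4 rose and 4 fell, and with 1 fit of all 24 arrays 5 rose and 11 fell. Without control replicate 1, 2 or 3 the 9 changes became 3, 3 and 5.

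Among the ligands of the amygdala, no class 3 semaphorin changed. Sema3c had the lowest difference (-0.64, SE 0.23, adjusted p = 0.112), but the control array of replicate 3 at 0.77 lay far above the others. Sema4d, the ligand of Plxnb1 in immune and nerve cells, fell by 0.62 (SE 0.15, adjusted p = 0.0478), Sema4g fell by 0.48 (SE 0.10, 0.0337) and Sema5a fell by 0.22 (SE 0.04, 0.0251). The Sema4d arrays read -0.87, -0.35 and -0.81 with CMS and -0.05, -0.09 and -0.01 in controls. Each of these 3 falls missed the threshold when control replicate 1, 2 or 3 was left out. They also missed it without CMS replicates 1 or 3 (Sema4d), 1 or 2 (Sema4g) and 2 or 3 (Sema5a). Sema4d and Sema5a missed it with the most variable probe set per gene, and Sema5a with the median of its probe sets. Over 16 settings the differences ranged from -1.28 to -0.51 for Sema4d and from -0.41 to -0.09 for Sema5a.

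Nrp1 fell in the amygdala from -0.36, -0.24 and -0.22 in the control arrays to -0.80, -1.05 and -0.86 with CMS, which is 1.55-fold (log2 -0.63, SE 0.08, adjusted p = 0.00937). The groups did not overlap. Its probe sets were not alike, and 3 fell by 0.74 to 1.02, of which 1448944_at passed 2-fold, at -0.03, -0.10 and 0.01 in controls and -1.13, -1.13 and -0.91 with CMS (2.02-fold, SE 0.07, adjusted p = 0.00335). The fourth, 1457198_at, read -1.63, -1.12 and -1.19 in controls and -0.83, -1.73 and -1.20 with CMS, a difference of 0.06 (SE 0.28, adjusted p = 0.883) with overlap. Nrp1 by this probe set alone would thus not have changed. The call of 1448944_at lay just over 2-fold and went just below it without CMS replicate 1 (-0.98), CMS replicate 2 (-0.98) or control replicate 3 (-0.99).

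Nrp2 moved the other way and rose by 0.25 (SE 0.05, adjusted p = 0.031), from 0.81, 0.84 and 0.86 to 1.14, 0.98 and 1.14. The groups did not overlap, and the rise missed the threshold without CMS replicate 1 or 3 or without any 1 control array. It also missed it with the most variable probe set per gene and with the median of the probe sets. Probe set 1435349_at overlapped, at 1.14, 1.30 and 1.28 in controls and 1.40, 1.22 and 1.13 with CMS. By contrast 1426528_at, 1456778_at and 1447343_at lay higher with CMS without overlap. The last of these lay within 0.05 of 0 in 13 arrays.

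Plxnc1 had the largest change of the family in the amygdala. Its arrays read 0.82, 0.96 and 0.99 in controls and 0.16, 0.20 and 0.07 with CMS, 1.72-fold lower (log2 -0.78, SE 0.06, adjusted p = 0.00313). The value with CMS was close to that of the other areas in control mice, where Plxnc1 ranged from -0.31 to 0.16. Of its 6 probe sets, 1423214_at (2.98-fold lower) and 1443434_s_at (2.29-fold lower) passed 2-fold, 1450905_at fell by 0.9986 and so stayed just under it, 1450906_at and 1423213_at had differences of -0.86 and -0.21 and missed the threshold, and 1443433_at rose by 0.17. The control arrays of 1423214_at read 1.84, 1.28 and 1.72 and its CMS arrays 0.01, 0.37 and -0.27. Without control replicate 1 or control replicate 3 that probe set missed the threshold (adjusted p = 0.0627 and 0.0697), while the fall of the gene value held in all 16 alternative settings.

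The plexins that rose in the amygdala were Plxnd1 (0.46, SE 0.05, adjusted p = 0.00584) and Plxna2, a signalling partner of the neuropilins (0.38, SE 0.06, 0.0144), and Plxna1 fell by 0.31 (SE 0.06, 0.0251). Plxnd1 read -0.08, -0.14 and 0.01 in controls and 0.40, 0.43 and 0.34 with CMS, without overlap. For Plxna2 the probe set 1453286_at went from -0.71, -0.60 and -0.69 to 0.58, 0.33 and 0.32 (2.11-fold, adjusted p = 0.00387, and 0.99 on the log2 scale without CMS replicate 1), 1451753_at and 1455037_at rose by 0.54 and 0.43, and 1429772_at lay at -0.51 (adjusted p = 0.0727). The probe sets of Plxna2 thus did not run in 1 direction. The change of the gene value missed the threshold without control replicates 1 or 2 for Plxna2 and without any control replicate for Plxna1, and Plxnd1 kept it without each of the 6 arrays.

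Markers of other cells moved in the same arrays. In the CMS arrays of the amygdala 11 of 14 oligodendrocyte genes were lower and none higher (list mean -0.444 to -0.416, against 0.0529 to 0.0954 in controls), 13 of 17 striatal genes were higher (1.61 to 1.70 against 1.24 to 1.26), 8 of 14 endothelial genes were higher and 1 lower (0.0805 to 0.163 against -0.207 to -0.123), and 5 of 12 meningeal genes were higher and 1 lower (0.70 to 0.763 against 0.286 to 0.394). Of 12 astrocyte genes 5 were lower and none higher (0.0379 to 0.0764 against 0.232 to 0.249), among them Gja1 (-0.67). Of 15 choroid plexus genes 1 was lower, Ttr (-3.70), and 3 were higher, among them Kcnj13 (1.05) past 2-fold. Of 13 amygdala neuron genes 4 were lower, among them Tac2 (-1.58) past 2-fold, and 5 were higher. Of 17 hippocampal neuron genes 6 were lower, 3 of them past 2-fold, and 1 higher (-0.385 to -0.289 against 0.0938 to 0.138). Of 16 hypothalamic genes 5 were lower, 2 of them past 2-fold, and none higher (0.75 to 0.912 against 1.32 to 1.56). The part of all these lists in the changes of Nrp1, Plxnc1, Plxnd1 and the others was not tested.

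**Figure D4:**
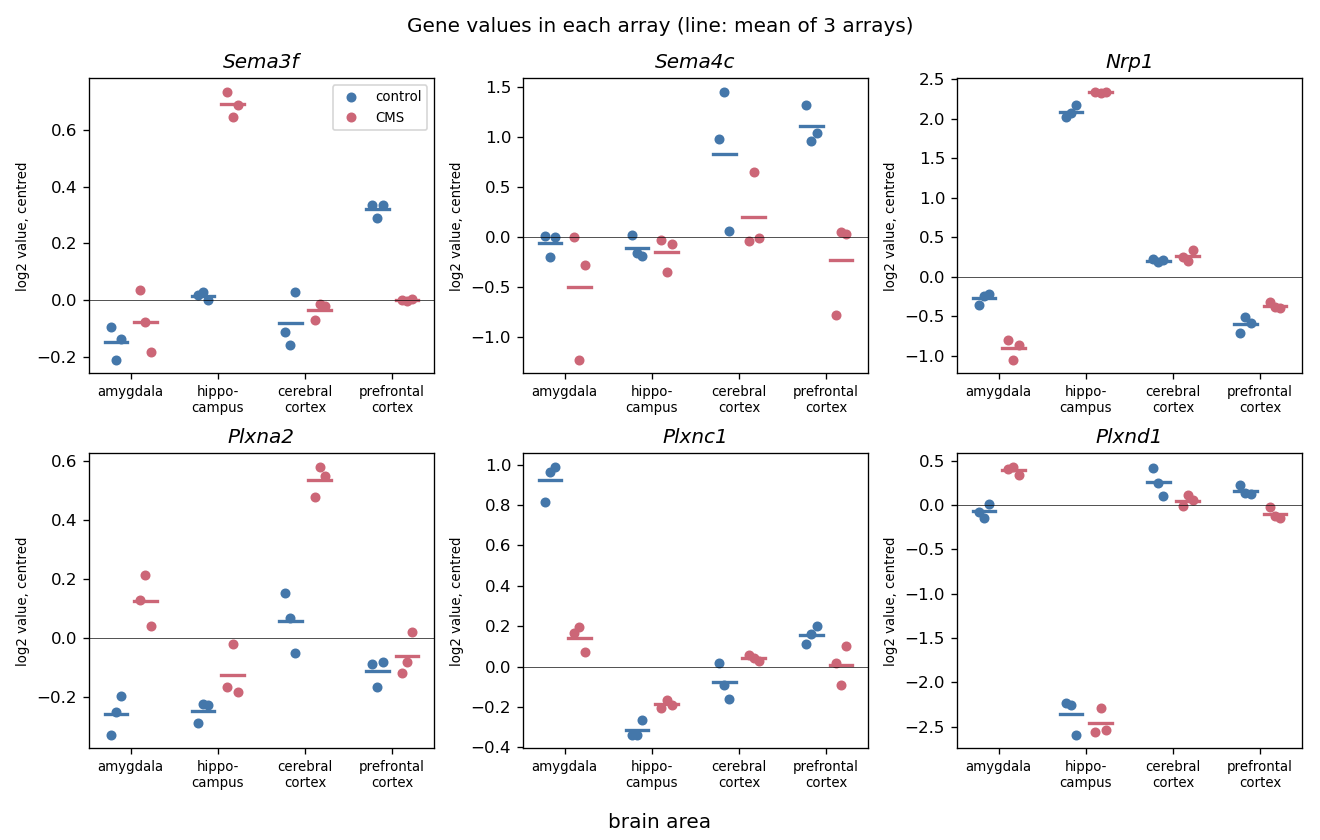
Centred log2 gene value (vertical axis) in each array, by area (horizontal axis) and treatment (colour), for 6 genes; each point is 1 array and each line the mean of 3. In the amygdala Plxnc1 and Nrp1 lie lower and Plxna2 and Plxnd1 higher with CMS without overlap, Sema3f lies apart only in the hippocampus and prefrontal cortex, and Sema4c spreads widely in the amygdala and both cortical areas.

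In the hippocampus, Sema3f, the ligand of Nrp2 known for pruning hippocampal mossy fibre axons, rose and the transmembrane ligand Sema5b fell. In all, 5 genes rose, against 4.66% of all genes, and 3 fell, against 24.9% of all genes. None passed 2-fold by gene value in limma (0.253% of all genes did), and the methods' t-test also called 0. For 1 gene a probe set passed it (Sema3f, against 0.824% of all genes). An unadjusted p under 0.05 was reached by 11 genes, and again the share over all genes was not counted. The arrays did not overlap for 12 of the 31 genes, against 56.4% of all genes, and the median difference was 0.022 over the 31 genes and -0.048 over all. With median centring 4 rose and 1 fell, with quantile normalization 3 rose and 3 fell, and with the median of the probe sets of a gene 2 rose and 4 fell. Counted by probe set, 7 of 78 rose and 12 fell, and the shares over all probe sets were not counted. The median difference was -0.028 over these probe sets and -0.0465 over all. The 8 changes became 3, 2 and 2 without CMS replicate 1, 2 or 3, and 3 and 4 without control replicate 1 or 2.

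Sema3f read 0.02, 0.03 and -0.0004 in the control hippocampus and 0.74, 0.65 and 0.69 with CMS, 1.6-fold higher (SE 0.03 on the log2 scale, adjusted p = 0.00252). The whole difference came from 1 of its 3 probe sets. Probe set 1438947_x_at read 0.01, 0.02 and 0.0029 in controls and 2.21, 1.96 and 2.08 with CMS, 4.20-fold (log2 2.07, SE 0.07, adjusted p = 0.00123), while 1420508_at and 1425840_a_at differed by -0.02 and -0.02 (adjusted p = 0.111 and 0.462). The latter pair lay within 0.05 of 0 in 21 and 22 of the 24 arrays. By the naming of the array's maker, the ending _x marks a probe set with probes that can also match other transcripts, so the rise cannot be assigned to Sema3f alone.

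Sema5b fell by 0.70 (SE 0.07, adjusted p = 0.008), with arrays at -0.21, -0.23 and -0.02 in controls and -0.83, -0.92 and -0.83 with CMS. Both of its probe sets fell, by 0.75 and 0.66, and the groups did not overlap. Sema3d and Sema3c, secreted ligands, fell by 0.23 and 0.17 (adjusted p = 0.046 and 0.0223). Sema3a had the second lowest difference (-0.28, SE 0.14, adjusted p = 0.186), with overlap, and Sema4g the second highest (0.49, SE 0.16, 0.0718), without overlap.

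Of the receptors in the hippocampus, Nrp1 rose by 0.24 (SE 0.04, adjusted p = 0.021) from 2.03, 2.07 and 2.18 to 2.34, 2.33 and 2.34. Here 1457198_at, which did not pass in the amygdala, carried the change (0.63, SE 0.06, adjusted p = 0.00681), and the other 3 differed by 0.02 to 0.17 and did not pass. Plxnb2, a receptor of class 4 ligands that was measured by 1 probe set, rose by 0.37 (SE 0.10, adjusted p = 0.0467), and Plxna1 and Plxnc1 rose by 0.13 each. The changes of Nrp1, Plxnb2, Plxnc1, Plxna1, Sema3c and Sema3d missed the threshold without single arrays: all 3 CMS replicates and control replicates 1 and 2 for the first 3 genes, CMS 2 and 3 and control 1 and 2 for Plxna1, CMS 1, 2 and 3 and control 1 for Sema3c, and CMS 1, 2 and 3 and control 2 and 3 for Sema3d. Sema3f and Sema5b kept it without each of the 6.

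Thalamic and habenular genes differed in the same hippocampal arrays, where 15 of 22 were higher with CMS and 1 lower, 10 of them past 2-fold (list mean 0.499 to 0.581, against -0.431 to -0.273 in controls). Meningeal genes were lower for 5 of 12 (-0.885 to -0.831 against -0.647 to -0.468). Hippocampal neuron genes were lower for 5 of 17 and higher for 2 (2.55 to 2.59 against 2.63 to 2.75). Oligodendrocyte genes were lower for 4 of 14 and higher for 3 (0.217 to 0.258 against 0.333 to 0.409). Choroid plexus genes were higher for 3 of 15 (2.65 to 2.7 against 2.33 to 2.46). The hypothalamic mean was lower (-0.415 to -0.397 against -0.327 to -0.228) and the striatal higher (-2.14 to -2.05 against -2.23 to -2.18). The part of all these lists in the changes of Sema3f, Sema5b and Nrp1 was not tested.

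In the cerebral cortex, Plxna2 rose and Plxnb1, Sema4a and Plxna1 fell. The 1 rise stands against 5.95% and the 3 falls against 3.99% of all genes. None passed 2-fold by gene value in limma (0.357% of all genes did), and the methods' t-test also called 0. For 1 gene a probe set passed it (Plxna2, against 1.75% of all genes). An unadjusted p under 0.05 was reached by 9 genes, without a share over all genes, which was not counted. The arrays did not overlap for 14 of the 31 genes and for 52.1% of all, and the median difference was -0.033 over the 31 genes and -0.031 over all. With median centring 2 rose and 2 fell, and with quantile normalization 2 rose and 4 fell, and with 1 fit of all 24 arrays 3 rose and 4 fell. The 4 changes became 2, 0 and 1 without CMS replicate 1, 2 or 3, and 2 without control replicate 1 or 2.

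Plxna2 read 0.15, 0.07 and -0.05 in the control cerebral cortex and 0.48, 0.58 and 0.55 with CMS, 1.39-fold higher (SE 0.06 on the log2 scale, adjusted p = 0.0115). As in the amygdala, the probe set 1453286_at passed 2-fold, from 0.15, 0.09 and -0.30 to 1.12, 1.21 and 1.14 (2.27-fold, SE 0.13, adjusted p = 0.00819). Of the others 1429772_at rose by 0.43, and 1451753_at and 1455037_at differed by 0.33 and -0.03 and did not pass. The gene value missed the threshold without CMS replicate 2 or CMS replicate 3.

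Plxnb1, the receptor of Sema4d, fell by 0.36 (SE 0.06, adjusted p = 0.0279), Sema4a fell by 0.24 (SE 0.03, 0.00976) and Plxna1 fell by 0.17 (SE 0.03, 0.0219). These missed the threshold without CMS replicates 1 or 2 or any control replicate (Plxnb1), without CMS replicates 2 or 3 (Sema4a), and without any CMS replicate or control replicates 1 or 2 (Plxna1). The lowest difference belonged to Sema4c, at -0.63 (SE 0.40, adjusted p = 0.356), whose arrays overlapped, with 0.98, 1.45 and 0.06 in controls and -0.04, 0.65 and -0.01 with CMS. Sema4g lay at -0.37 (adjusted p = 0.0813) and Sema5a at 0.29 (0.158). Probe set 1437422_at of Sema5a differed by 1.36, but its control arrays ranged from -2.0 to -0.36 and it did not pass (SE 0.42, adjusted p = 0.133).

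The cerebral cortex arrays with CMS also read higher for 13 of 17 striatal genes, 9 of them past 2-fold (list mean -0.873 to -0.866, against -2.35 to -2.22 in controls), higher for 8 of 14 oligodendrocyte genes (0.156 to 0.176 against -0.109 to -0.0356), and lower for 13 of 15 choroid plexus genes (-0.987 to -0.959 against 1.53 to 1.72). Astrocyte genes were higher for 5 of 12 (0.0649 to 0.0963 against -0.226 to -0.144) and microglial genes for 5 of 11 (0.10 to 0.153 against -0.321 to -0.145), with none lower. The part of these in the changes of Plxna2 and Plxnb1 was not tested.

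**Figure D5:**
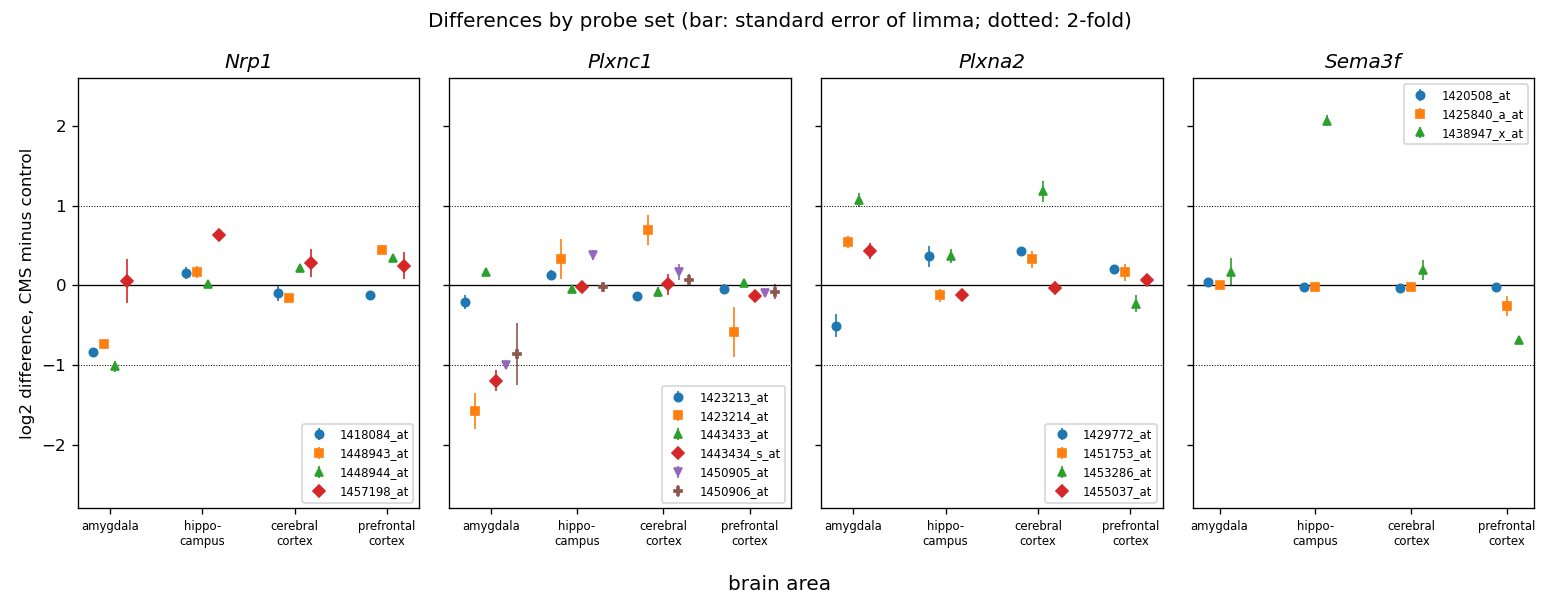
Log2 difference between CMS and control (vertical axis) by area (horizontal axis) for each probe set of 4 genes; bars are the standard error of limma and dotted lines mark 2-fold. A single probe set carries the hippocampal rise of Sema3f (2.07), 1 of 4 Nrp1 probe sets stays near 0 in the amygdala, 1453286_at stands above the other Plxna2 probe sets in the amygdala and cerebral cortex, and 4 of 6 Plxnc1 probe sets lie near or below -0.86 in the amygdala.

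In the prefrontal cortex all changes by gene value were falls. They were seen in Sema4c, Plxnb3, Sema4d, Sema3f, Sema4f, Plxnb1, Plxnd1 and Nrp2. None of the 31 rose, against 4.45% of all genes, and 8 fell, against 3.92% of all genes. The arrays did not overlap for 23 of the 31 genes, against 48.1% of all genes. The median difference was -0.15 over the 31 genes and 0.018 over all genes. An unadjusted p under 0.05 was reached by 20 genes, and here too the share over all genes was not counted. The falls numbered 8 also under quantile normalization and under median centring, 2 with the methods' t-test, and 15, beside 3 rises, with array weights. By probe set 4 of 78 rose and 8 fell, and the shares over all probe sets were not counted. With 1 fit of all 24 arrays, and also without control replicate 3, 1 gene rose and 6 fell. The falls numbered 4, 2 and 3 without CMS replicate 1, 2 or 3, and 5 and 4 without control replicate 1 or 2.

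Sema4c was the only gene called (0.247% of all genes were, 0.0934% lower), and no probe set of the family was called in the fit of probe sets (0.379% of all genes had such a probe set). It was 2.53-fold lower (log2 -1.34, SE 0.26, adjusted p = 0.0403). Its single probe set, 1433920_at, read 1.32, 0.96 and 1.04 in controls and -0.78, 0.05 and 0.03 with CMS. The groups did not overlap, but CMS replicate 1 lay far below the others. Without that array the difference was -1.07 and still passed (adjusted p = 0.0358), and without any 1 of the other 5 it was -1.48 to -1.23 and missed (0.0735 to 0.12). In the fit of probe sets it missed as well (adjusted p = 0.0582).

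Among the other ligands of the prefrontal cortex, Sema4d fell by 0.43 (SE 0.06, adjusted p = 0.0218), from 0.35, 0.40 and 0.59 to 0.02, 0.03 and -0.0012. Sema3f fell by 0.32 (SE 0.02, adjusted p = 0.0035), and again 1438947_x_at carried the change, from 0.68, 0.78 and 0.58 to -0.0029, -0.0085 and -0.0049 (log2 -0.69, SE 0.05, adjusted p = 0.00883), while 1425840_a_at lay at -0.26 and did not pass (0.361). The CMS arrays of that probe set lay at the median of all arrays, with less spread than the controls. Sema4f, a class 4 ligand of neurons, fell by 0.30 (SE 0.05, adjusted p = 0.0232). The differences of the class 3 ligands other than Sema3f did not pass, and Sema3g had the highest of all, at 0.25 (SE 0.13, adjusted p = 0.321).

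Of the receptors, Plxnb3, which binds Sema5a, fell by 0.60 (SE 0.06, adjusted p = 0.0107). Its arrays read 0.01, 0.02 and -0.02 in controls and -0.71, -0.61 and -0.47 with CMS. This fall missed the threshold with the most variable probe set per gene, and over 16 settings the difference ranged from -0.84 to -0.54. Plxnb1, Plxnd1 and Nrp2 fell by 0.29, 0.26 and 0.15 (adjusted p = 0.0258, 0.0314 and 0.022). Sema4d, Sema4f, Plxnb1, Plxnd1 and Nrp2 each missed the threshold when single arrays were left out (any CMS replicate or control 2 for Sema4d, CMS 1 or 2 or control 1 for Sema4f, any CMS replicate or control 2 or 3 for Plxnb1, CMS 2 or 3 or any control for Plxnd1, any CMS replicate or control 1 or 3 for Nrp2), and Plxnb3 and Sema3f did not. All 3 plexin B genes lay below 0, and Plxnb2 did not pass (-0.22). Nrp1 lay at 0.23 (SE 0.06, adjusted p = 0.0695), with arrays at -0.71, -0.51 and -0.59 in controls and -0.32, -0.39 and -0.40 with CMS that did not overlap, and its probe sets 1448943_at and 1448944_at rose by 0.45 and 0.35 while 1418084_at lay at -0.12.

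Oligodendrocyte genes were lower in these CMS arrays for 8 of 14 (list mean -0.407 to -0.403, against -0.214 to -0.152 in controls), striatal genes for 8 of 17 (0.637 to 0.761 against 0.917 to 1.00) and choroid plexus genes for 6 of 15 (-0.66 to -0.637 against 0.122 to 0.199). Cortical layer genes were lower for 4 of 15 and none was higher (0.103 to 0.118 against 0.148 to 0.193). List means were also lower without overlap for thalamic and habenular (0.0392 to 0.0965 against 0.214 to 0.251) and hypothalamic genes (0.365 to 0.441 against 0.491 to 0.513). The same held for amygdala neuron genes (0.14 to 0.246 against 0.273 to 0.353). The microglial mean was higher (0.108 to 0.187 against -0.0113 to 0.0471). The part of all these lists in the falls of Sema4c, Sema4d and Plxnb3 was not tested.

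The genes named for a large change were nearer to their controls in the remaining areas. Plxnc1 read 0.02, -0.09 and -0.16 in control and 0.06, 0.04 and 0.03 in CMS arrays of the cerebral cortex, 0.11, 0.16 and 0.20 against 0.02, -0.09 and 0.10 in the prefrontal cortex, and -0.34, -0.34 and -0.27 against -0.21, -0.17 and -0.19 in the hippocampus. Nrp1 in the cerebral cortex read 0.22, 0.18 and 0.22 in control and 0.26, 0.20 and 0.34 in CMS arrays, which overlapped. Of these, only the hippocampal rise of Plxnc1 passed the test.

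Plxna2 read -0.29, -0.22 and -0.23 in control and -0.17, -0.02 and -0.18 in CMS arrays of the hippocampus, without overlap, and -0.09, -0.17 and -0.08 against -0.12, -0.08 and 0.02 in the prefrontal cortex, with overlap. Sema3f overlapped in the amygdala, at -0.10, -0.21 and -0.14 in control and 0.03, -0.08 and -0.18 in CMS arrays, and in the cerebral cortex, at -0.11, -0.16 and 0.03 against -0.07, -0.01 and -0.02. Sema4c also overlapped in the amygdala, where CMS replicate 2 at -1.23 lay far below the other CMS arrays (0.0007 and -0.28) and the controls (0.0096, -0.20 and -0.0007), and in the hippocampus (0.02, -0.16 and -0.19 in control and -0.03, -0.36 and -0.07 in CMS arrays). None of these differences of Plxna2, Sema3f and Sema4c passed the test.

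Whether the effect of CMS itself differed between areas was tested with all 24 arrays, so the control arrays of each area enter here as they do above. The F test gave an adjusted p under 0.05 for 20 of 31 genes and for 52.3% of all genes. None differed by more than 1 on the log2 scale between the highest and the lowest effect as well (2.47% of all genes did), by the F test of limma, and the same 20 had an unadjusted p under 0.05. The median of that difference was 0.426 over the 31 genes and 0.241 over all genes. Sema3f came nearest, with an effect 0.996 higher in the hippocampus than in the prefrontal cortex (SE 0.07, adjusted p = 2.35e-08). Its gene value averages 1438947_x_at with 1420508_at and 1425840_a_at, which lay near their median in 21 and 22 of the 24 arrays. The effect of 1438947_x_at alone was larger in both areas, and that probe set cannot be assigned to Sema3f alone.

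The effects on Plxnc1 and Nrp1 in the amygdala differed from those in every other area. The amygdala minus hippocampus difference of the Plxnc1 effect was -0.906, that from the cerebral cortex -0.90 and that from the prefrontal cortex -0.629 (SE 0.07 each, adjusted p = 1.76e-07, 8.74e-08 and 1.19e-05). For Nrp1 the same differences were -0.877, -0.693 and -0.865 (SE 0.09, adjusted p = 9.74e-07, 9.1e-06 and 1.47e-06), and the other areas did not differ from each other beyond the spread. For Plxna1, which also fell in the amygdala, the effect there did not differ from that in the cerebral cortex beyond the spread (difference -0.14, SE 0.06, adjusted p = 0.0562). The rise of Plxnd1 in the amygdala differed from its effect in the hippocampus, cerebral cortex and prefrontal cortex by 0.563, 0.671 and 0.723 (SE 0.13, adjusted p = 0.003, 0.000844 and 0.000741). The rises of Plxna2 in the amygdala and the cerebral cortex did not differ (difference -0.09, SE 0.08, adjusted p = 0.38). For Sema4c the effects ranged from -1.34 to -0.04, and the F test did not pass (adjusted p = 0.116, with 0.0383 for hippocampus against prefrontal cortex alone), so its fall is not shown to be particular to the prefrontal cortex.

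Genes that act with the family were read from a list of coreceptors, adhesion partners and signalling proteins, of which 46 of 50 were measured. None was called in any area by limma. By area, 3 rose and 8 fell in the amygdala (median difference -0.067), 6 and 9 for the hippocampus (-0.047), 4 and 4 for the cerebral cortex (-0.041), and 3 and 2 for the prefrontal cortex (-0.03). The background shares of rises and falls were those given above for each area. Gsk3b, a kinase downstream of Sema3a, rose by 0.59 in amygdala arrays (SE 0.07, adjusted p = 0.00899), by 0.26 in hippocampal arrays (SE 0.03, 0.0121) and by 0.59 in cerebral cortex arrays (SE 0.09, 0.0174), and lay at -0.03 in the prefrontal cortex (SE 0.05, 0.677). In the amygdala, Rhoa and Rac1, GTPases of the cytoskeleton, fell by 0.50 and 0.23, and Rnd1, a GTPase that binds plexins, fell by 0.78 (SE 0.16, adjusted p = 0.0327). These 4 genes were chosen for the text after their values were seen.

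Other guidance families served for comparison, with 40 of 41 netrin, Slit, ephrin, Eph and repulsive guidance genes measured, and none was called by limma. By area, 7 rose and 10 fell in the amygdala (median difference 0.02), 4 and 6 for the hippocampus (-0.05), 1 and 2 for the cerebral cortex (-0.027), and 1 and 4 for the prefrontal cortex (-0.048). In the prefrontal cortex, where 8 of the 31 semaphorin, neuropilin and plexin genes fell, the falls were thus 4 of 40 among these genes, and the 2 shares were not tested against each other.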

How the data were processed

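Arrays of 4 areas in stressed and unstressed mice, 24 in all, were analysed. The authors applied GCRMA within GeneSpring GX and a baseline per probe set (no version is named in the sources), which left deposited log2 values whose median over all arrays is 0 for each probe set (largest absolute median 5e-07). Background, saturation and absolute levels cannot be read from such values, and the number of arrays limits the precision. Correlations between the arrays of a group were 0.69 to 0.928 and no pair was identical. The sample descriptions give an upper age that rises by 1 week from sample to sample, while the other labels give 6 to 8 weeks for all, so age was not used.

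Of 45101 probe sets, 64 controls were left out, and of 45037 tested, 34945 had 1 gene symbol in the platform annotation, 932 several and 9160 none. Probe sets that carried only that symbol were averaged into a gene value. Each area was fitted separately with limma 3.58.1 (statmod 1.5.0, R 4.3.3), control areas with their 12 arrays and the difference of effects with all 24. The methods' thresholds, an adjusted p under 0.05 and 2-fold, were used. Every one of the 31 genes is accounted for. Values of all arrays are given for genes called by gene or probe set, and for Nrp1 and Sema3f, and the 2 highest and 2 lowest differences are named per area. The genes and lists were chosen with earlier results of these data known.

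Alternatives were the methods' t-test, 1 fit of all arrays, quantile normalization, median centring, leaving out genes of smaller standard deviation, array weights, trend and robust options, a block for the replicate number, the mouse as a random effect, no fold threshold, the most variable or the median probe set, and leaving out each array. Probe sets in place of genes and the area order in CMS arrays were alternatives chosen after seeing the data. The scripts were tested on simulated data. Replicate numbers did not pair CMS and control arrays within an area. None of 12 such pairs of the same number had deviations that correlated above 0.1 (-0.0645 to 0.0267). The labels do not say whether the 4 areas of a number came from the same mouse. Across areas, arrays of the same number and treatment correlated at -0.238 to 0.106. With the mouse as a random effect the calls between control areas stayed at 10 and those between effects at 0. Promoters came from RefSeq, and figures were drawn with matplotlib.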

Additional observations from a re-analysis of the deposited data

Results flagged for a closer look

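For 20 of the 31 genes the effect of CMS differed between areas by the F test over all 24 arrays (adjusted p under 0.05, against 52.3% of all genes). Values are the highest minus the lowest log2 effect of the 4 areas, and no cause was tested.

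Among the ligands the difference was 0.996 for Sema3f, which was highest in the hippocampus and lowest in the prefrontal cortex. That value rests mainly on 1438947_x_at, a probe set that cannot be assigned to Sema3f alone. The difference was 0.97 for Sema4g and 0.907 for Sema5b, which ran in opposite directions in the amygdala and hippocampus. Sema4g was lowest in the amygdala and highest in the hippocampus, and Sema5b the reverse. It was 0.733 for Sema3c (lowest in the amygdala), 0.694 for Sema4d (lowest in the amygdala), 0.505 for Sema5a, 0.306 for Sema3e, 0.293 for Sema6d, 0.251 for Sema7a and 0.173 for Sema4a.

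Among the receptors it was 0.906 for Plxnc1 and 0.877 for Nrp1, both lowest in the amygdala and highest in the hippocampus. Plxna3 (0.766) and Plxna1 (0.444) also had their lowest effect in the amygdala and their highest in the hippocampus. Plxnd1 (0.723) and Nrp2 (0.399) had their highest effect in the amygdala and their lowest in the prefrontal cortex. The differences were 0.722 for Plxnb3, 0.596 for Plxnb2, 0.426 for Plxna2 and 0.378 for Plxnb1.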

How the results depend on the processing

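No gene was called in the amygdala, hippocampus or cerebral cortex, and this count became 9, 8 and 4 with no fold threshold, 2 (Plxna2 and Plxnc1), 1 (Sema3f) and 1 (Plxna2) with the most variable probe set per gene, and 3, 1 and 1 with probe sets in place of genes, an alternative chosen after seeing the data. In the cerebral cortex array weights gave 1 (Sema4c). In the prefrontal cortex the 1 call, Sema4c, was 0 with median centring, quantile normalization, the methods' t-test, trend and robust options, the most variable probe set or probe sets in place of genes, and 8 genes passed with no fold threshold. Leaving out each array gave 0 to 1. The 10 genes called between control areas became 30 with no fold threshold and 20 with the most variable probe set, and each of the 10 was called in every alternative tried. The count of effects that differed by over 2-fold between areas, 0, became 2 with median centring (Sema3f and Sema4g), 1 with array weights (Sema4c), 20 with no fold threshold, 9 with the most variable probe set, 2 with the median of the probe sets (Nrp1 and Plxnc1) and 0 to 2 when each array was left out. Directions reversed for Nrp1 in the amygdala with the most variable probe set (0.057) and for Sema3f in the hippocampus with the median of its probe sets (-0.018). These settings use other probe sets, and the cause of the other differences was not tested. By adjusted p alone, the changes in amygdala, hippocampal, cerebral and prefrontal cortex arrays were 9, 8, 4 and 8, and became 10, 11, 10 and 18 with array weights, whose iteration stopped before it converged in at least 1 of the fits, 7, 6, 3 and 2 with the methods' t-test, and 16, 8, 7 and 7 with 1 fit of all arrays. Leaving out each array gave 3 to 8, 2 to 8, 0 to 4 and 2 to 7.

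Between CMS and control arrays, replicates of the same number share only that number. With the replicate block the call in the prefrontal cortex became 0, the other counts of calls stayed within 1.5 times, and changes at the adjusted p alone went from 9 to 2 genes in the amygdala (Plxnc1 is in both counts) and from 8, 4 and 8 to 0 in the hippocampus, cerebral cortex and prefrontal cortex, with fewer degrees of freedom. The number of arrays and the lack of a signal over background in centred values limit what can be seen of small changes.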
